A study of Mus musculus with 12 samples.

Results

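Krüppel-like factors (KLFs) and early growth response factors (EGRs) are zinc finger transcription factors that bind GC-rich and CACCC-like DNA. The members are the 10 genes Klf2, Klf3, Klf4, Klf6, Klf7, Klf9, Klf10, Klf13, Egr1 and Egr2, found by matching the accession of each array probe to a gene symbol. They are 10 of the 13165 genes tested. Each was read by 1 probe that lay well above background on all 12 arrays and was saturated on none. The rule for the list used no values from these samples, but the members were chosen with earlier results of these data known.

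Peritoneal macrophages of wild-type C57BL/6 mice were profiled on 12 one-colour Agilent arrays, 4 for each of 3 treatments. The LPS_IFNg_emodin group received lipopolysaccharide (LPS, a bacterial cell wall lipid, at 100 ng/ml), interferon gamma (IFNg, at 20 ng/ml) and emodin, a plant anthraquinone, at 50 μM. The LPS_IFNg group received the same LPS and IFNg without emodin, and the control group received vehicle. Treatment lasted 20 hours, and animals were 9 weeks old in both stimulated groups and 8 weeks old in the control group. Cells that did not adhere were washed off after 2 hours and the rest spent a night without serum, so all groups are cultured adherent cells and none received emodin alone. The question was how emodin alters the response of macrophages to these stimuli. Levels below are log2 signals relative to the 75th percentile of the array and are compared only within a gene. A difference was called at an adjusted p under 0.05 in limma.

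KLFs and EGRs act downstream of signals that reach the nucleus within minutes to hours. EGR genes are classic immediate early genes, switched on through serum response factor by growth factor and stress signals and held in check by the NAB corepressors. In macrophages Klf2 is known to restrain inflammatory genes, Klf4 to favour the alternatively activated state, Klf6 to promote inflammatory genes, and Egr2 to mark alternatively activated cells. Klf2 and Klf4 are known targets of the kinase ERK5 acting through MEF2 factors.

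Some facts touch all results. Both stimulated groups lay on 1 slide and the control group on another, so slide, age and treatment cannot be told apart in either comparison with control, whereas LPS_IFNg_emodin against LPS_IFNg lies within a slide. On 4 arrays the sex-linked transcripts went against the labelled sex: replicate 3 of LPS_IFNg_emodin, replicate 3 of LPS_IFNg, and control replicates 3 and 4. On these stimulated arrays Xist, the female transcript, was -6.04 and -5.97, and the Y-linked Eif2s3y 1.88 and 1.01. Control replicates 3 and 4 had Xist at 0.19 and 0.44 and Eif2s3y at -6.54 and -6.73. They read like control replicates 1 and 2 (Xist 0.01 and -0.01, Eif2s3y -6.64 and -6.77). Ddx3y followed Eif2s3y, while Kdm5d and Uty were low on every array. Without the 4 arrays at odds with their sex label 9 members were called for LPS_IFNg_emodin against LPS_IFNg, where 9150 of all 13165 genes were called. For LPS_IFNg_emodin against control these were 7 members and 9786 genes, and for LPS_IFNg against control 7 members and 8414 genes. The last 7 were 5 higher and 2 lower, in place of 4 and 3 with all arrays. The 75th percentile of the raw signal ranged from 435 to 548 on LPS_IFNg_emodin arrays, from 763 to 942 on LPS_IFNg arrays and from 747 to 971 on control arrays. The tissue label names macrophages and the design text another white blood cell. The mean log2 level of 8 macrophage markers ranged from 2.98 to 3.32, from 3.74 to 3.98 and from 3.50 to 3.64 in LPS_IFNg_emodin, LPS_IFNg and control. In LPS_IFNg_emodin against LPS_IFNg 5 of these 8 were called lower and 2 higher, and Timd4 was above background on no emodin array. For 7 neutrophil markers the mean ranged from -1.09 to -0.62, from -1.70 to -1.40 and from -0.70 to -0.32. Of these 7, 5 were called higher and 2 lower in LPS_IFNg_emodin against LPS_IFNg, where S100a9, Ltf and Mpo were above background on no LPS_IFNg array. For 10 mesothelial and fibroblast markers the mean ranged from -3.21 to -1.78, from -1.26 to -0.03 and from -0.75 to 1.05, and 5 of these 10 were called lower in LPS_IFNg_emodin against LPS_IFNg. For 6 lymphocyte markers the mean ranged from -1.53 to -1.09 in LPS_IFNg_emodin, from -0.40 to 0.69 in LPS_IFNg and from -0.57 to 0.15 in control, so the emodin arrays lay below all others, and 3 of the 6 were called lower and 1 higher against LPS_IFNg. For 5 endothelial markers it ranged from 0.14 to 0.63, from 0.16 to 0.44 and from 0.83 to 0.90, and for 4 mast cell markers from -3.49 to -1.77, from -3.47 to -2.26 and from -3.47 to -1.90, in the same order of groups. Over all genes tested, 35.1% were called higher and 36.8% lower in LPS_IFNg_emodin against LPS_IFNg. The part of these cell types in the results below was not tested. In such bulk samples fewer cells of a type and less RNA per cell cannot be told apart.

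Promoters of 8 members were found in the set of RefSeq promoters used here (GRCm38.p6). Klf10 and Egr1 had no entry in that set. The 250 bases before the start of Klf2 and of Klf4 are shown because both genes are known ERK5 targets yet moved in opposite directions with emodin. Capitals mark CACCC, GCGNGGGCG (an EGR-type site, N any base) and the MEF2 site, on either strand, and motifs may overlap.
Klf2, chr8:72318812-72319061, plus strand: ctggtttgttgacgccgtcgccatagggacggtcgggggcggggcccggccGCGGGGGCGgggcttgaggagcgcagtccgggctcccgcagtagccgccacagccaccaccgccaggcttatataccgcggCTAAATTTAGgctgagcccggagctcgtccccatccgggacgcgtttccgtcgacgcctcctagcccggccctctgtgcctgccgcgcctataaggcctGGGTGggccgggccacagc
Klf4, chr4:55532476-55532725, minus strand: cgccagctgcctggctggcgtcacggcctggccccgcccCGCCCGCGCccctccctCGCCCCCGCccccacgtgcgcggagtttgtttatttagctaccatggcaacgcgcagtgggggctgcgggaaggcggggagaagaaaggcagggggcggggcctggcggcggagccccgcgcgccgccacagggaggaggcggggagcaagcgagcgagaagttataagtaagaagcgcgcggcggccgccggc
The Klf2 window held 1 MEF2 site 118 bases before the start, 1 GCGNGGGCG and 1 CACCC. The Klf4 window held 2 GCGNGGGCG and neither a CACCC nor a MEF2 site. Of 27025 promoter windows of this length 1.73% held the MEF2 site, 4.65% GCGNGGGCG and 51.3% CACCC. Klf3 held 5 CACCC and 3 GCGNGGGCG, and Klf7 held 3 CACCC. Egr2 has 5 annotated starts, and the window before the most upstream one held no CArG box, the element read by serum response factor. A CArG box was held by 1.4% of windows taken at 1 start per gene. That share is therefore not matched to a search over 5 starts. Short stretches before other Egr2 starts are shown because each holds a CArG box (capitals).
Egr2, chr10:67537484-67537513, plus strand: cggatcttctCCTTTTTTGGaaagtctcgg
Egr2, chr10:67537787-67537816, plus strand: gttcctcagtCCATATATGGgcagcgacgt
These matches describe the letters in the windows, and binding was not measured.

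Of the 10 members, 9 were called in LPS_IFNg_emodin against LPS_IFNg, where 71.8% of all genes tested were called. Klf2, Klf7 and Klf10 were higher with emodin, and Klf3, Klf4, Klf6, Klf13, Egr1 and Egr2 were lower, where 35.1% of all genes were higher and 36.8% lower. In LPS_IFNg_emodin against control 8 were called (6 higher, 2 lower), against 78.1% of all genes (39.0% higher, 39.2% lower). In LPS_IFNg against control 7 were called (4 higher, 3 lower), against 69.0% of all genes (33.8% higher, 35.2% lower). Most genes tested were called in each comparison, so these counts are not read as a result about the family. The median difference over the members was -0.38, 0.40 and 0.25 in these comparisons, beside -0.01, -0.00 and -0.04 over all genes. The 4 arrays of each group did not overlap for 8, 6 and 5 members, where 67.4%, 72.3% and 64.3% of genes did not overlap. The comparisons share arrays, so a gene's differences are linked.

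**Figure D1:**
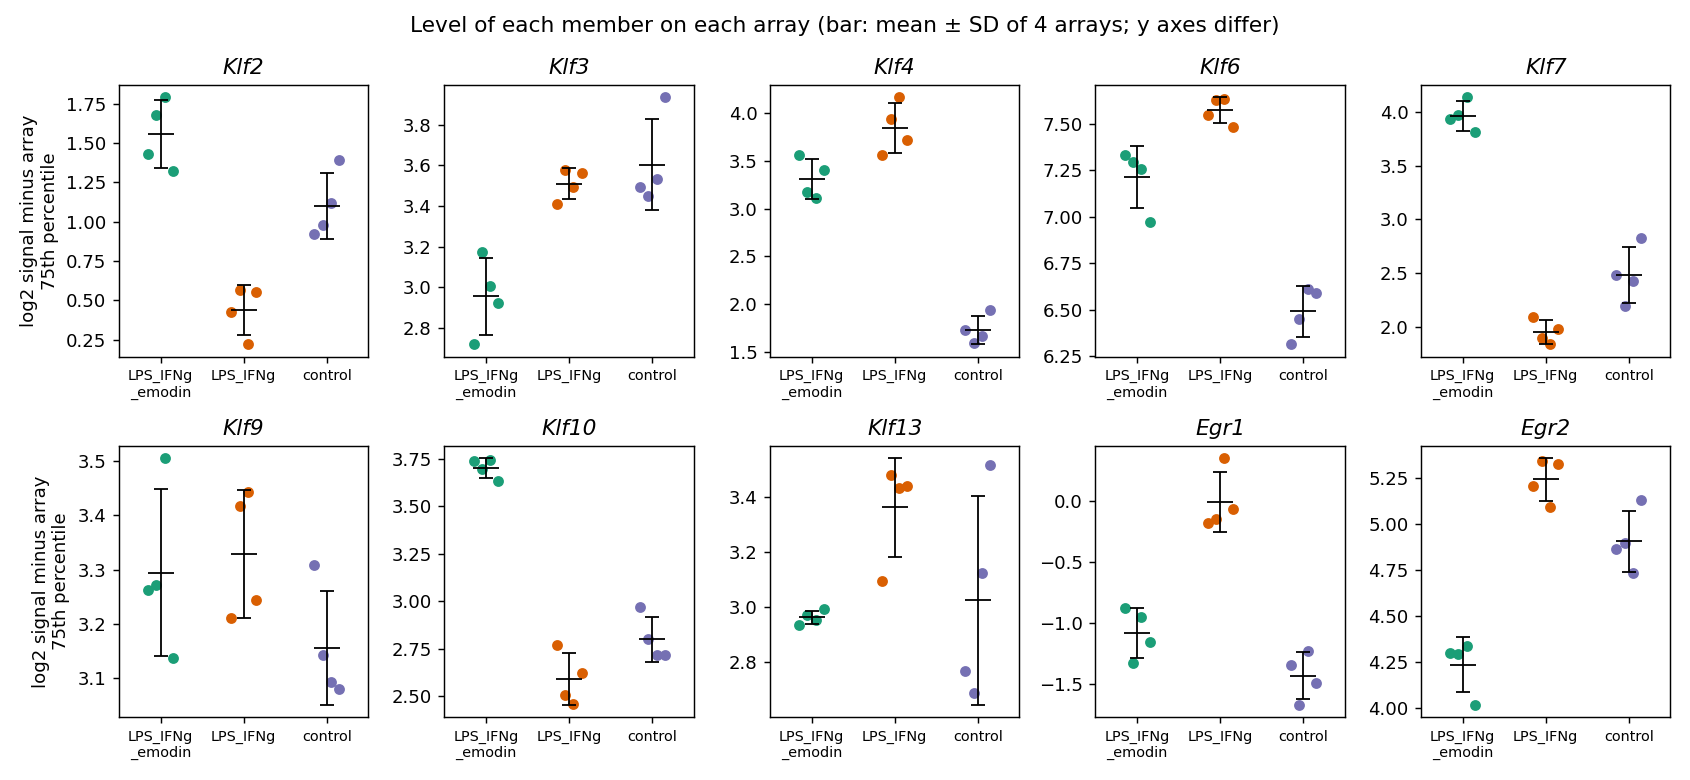
Log2 level of each of the 10 members on each array (points), with the mean and SD of 4 arrays (bars), for LPS_IFNg_emodin, LPS_IFNg and control; the y axes differ between genes. Klf2, Klf7 and Klf10 are highest with emodin, Klf4, Klf6 and Egr1 are highest with LPS_IFNg and lowest in control by their means, and the Klf9 groups overlap.

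Klf7, known for its part in neuronal growth and in the restraint of fat cell formation, differed most with emodin. Its level was 3.93, 3.97, 4.14 and 3.81 on the LPS_IFNg_emodin arrays, 2.09, 1.90, 1.84 and 1.98 on the LPS_IFNg arrays, and 2.48, 2.19, 2.43 and 2.82 on the control arrays. All emodin arrays were above all others, and every LPS_IFNg array was below every control array. Klf7 was 4.02-fold higher in LPS_IFNg_emodin than in LPS_IFNg (log2 2.01 ± 0.12 SE, n = 4 each, limma adjusted p = 4.95e-08). It was 2.79-fold higher in LPS_IFNg_emodin than in control (1.48 ± 0.12, limma adjusted p = 3.16e-07). In LPS_IFNg it was lower than in control by a log2 difference of -0.53 ± 0.12 (limma adjusted p = 0.00231). That fall was -0.35 (limma adjusted p = 0.0295) without the 4 arrays at odds with their sex label.

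Klf2, the restraint on inflammatory genes named above, showed the same order of group means. Its level was 1.43, 1.68, 1.79 and 1.32 in LPS_IFNg_emodin, 0.42, 0.57, 0.22 and 0.55 in LPS_IFNg, and 0.92, 0.98, 1.12 and 1.39 in control. The LPS_IFNg arrays lay below all others, while LPS_IFNg_emodin and control overlapped at 1 array each. Klf2 was 2.17-fold higher in LPS_IFNg_emodin than in LPS_IFNg (log2 1.12 ± 0.13, limma adjusted p = 1.17e-05). Against control it differed by 0.45 ± 0.13 in LPS_IFNg_emodin (limma adjusted p = 0.00773) and by -0.66 ± 0.13 in LPS_IFNg (limma adjusted p = 0.000785). The first of these was 0.28 (limma adjusted p = 0.0938) when arrays were scaled on probes detected on all arrays, and the second was -0.44 (limma adjusted p = 0.0119) without the 4 arrays at odds with their sex label.

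Klf10, a gene first known as induced early by transforming growth factor beta, was also highest with emodin. Its level was 3.74, 3.70, 3.74 and 3.63 in LPS_IFNg_emodin, 2.77, 2.51, 2.46 and 2.62 in LPS_IFNg, and 2.97, 2.80, 2.71 and 2.72 in control. The emodin arrays stood above all others within a narrow range, and the LPS_IFNg and control arrays overlapped. Klf10 was 2.16-fold higher in LPS_IFNg_emodin than in LPS_IFNg (log2 1.11 ± 0.08, limma adjusted p = 2.58e-07) and 1.87-fold higher than in control (0.90 ± 0.08, limma adjusted p = 8.53e-07). In LPS_IFNg it differed from control by -0.21 ± 0.08 (limma adjusted p = 0.0413). That call was lost without LPS_IFNg_emodin replicate 2 (-0.21, adjusted p = 0.0535), LPS_IFNg replicate 2 (-0.18, 0.106), 3 (-0.17, 0.117) or 4 (-0.22, 0.0629), or control replicate 1 (-0.15, 0.124) or 2 (-0.21, 0.0701). With the normexp background correction and without the filter on dim probes, 2 members were called lower in this comparison, in place of 3. The same held for the fit on the 8 arrays of the 2 groups and without replicate 3 of both stimulated groups. Klf10 had the largest adjusted p of the 3. The size of its difference also depended on scaling. The difference was -0.32 with quantile normalization (limma adjusted p = 0.003) and with the deposited value table (limma adjusted p = 0.00307). Scaling on probes detected on all arrays gave -0.33 (limma adjusted p = 0.00289).

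Klf4, which favours the alternatively activated state in macrophages, rose most of the members with LPS_IFNg. Its level was 3.56, 3.17, 3.11 and 3.41 in LPS_IFNg_emodin, 3.56, 3.94, 4.16 and 3.72 in LPS_IFNg, and 1.72, 1.59, 1.67 and 1.94 in control. Every stimulated array was above every control array, and the stimulated groups overlapped only at replicate 1 of each. Klf4 was 4.33-fold higher in LPS_IFNg than in control (log2 2.12 ± 0.14, limma adjusted p = 7.78e-08) and 3.00-fold higher in LPS_IFNg_emodin than in control (1.58 ± 0.14, limma adjusted p = 6.19e-07). With emodin it was lower than in LPS_IFNg by a log2 difference of -0.53 ± 0.14 (limma adjusted p = 0.00513).

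Klf6, known to promote inflammatory gene expression in macrophages, followed the same order. Its level was 7.34, 7.30, 7.26 and 6.97 in LPS_IFNg_emodin, 7.55, 7.63, 7.63 and 7.48 in LPS_IFNg, and 6.31, 6.45, 6.61 and 6.59 in control. The 3 groups did not overlap. Klf6 was 2.12-fold higher in LPS_IFNg than in control (log2 1.08 ± 0.10, limma adjusted p = 9.04e-07). It differed by -0.36 ± 0.10 in LPS_IFNg_emodin against LPS_IFNg (limma adjusted p = 0.00509) and by 0.72 ± 0.10 in LPS_IFNg_emodin against control (limma adjusted p = 2.00e-05). With quantile normalization these were -0.66 (limma adjusted p = 0.000513) and 0.23 (limma adjusted p = 0.107), and the deposited value table gave -0.67 and 0.22.

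Egr1, the immediate early gene that helps monocytes mature, was highest with LPS_IFNg too. Its level was -0.88, -1.33, -0.95 and -1.16 in LPS_IFNg_emodin, -0.18, -0.14, 0.36 and -0.07 in LPS_IFNg, and -1.34, -1.68, -1.23 and -1.49 in control. The LPS_IFNg arrays stood above all others, and LPS_IFNg_emodin overlapped with control. Egr1 was 2.69-fold higher in LPS_IFNg than in control (log2 1.43 ± 0.14, limma adjusted p = 2.91e-06), and with emodin it was lower than in LPS_IFNg by a log2 difference of -1.07 ± 0.14 (limma adjusted p = 3.20e-05). Against control it differed by 0.35 ± 0.14 in LPS_IFNg_emodin (limma adjusted p = 0.0400). That last call was lost without LPS_IFNg_emodin replicate 1 (0.29, adjusted p = 0.109), 3 (0.31, 0.0956) or 4 (0.38, 0.0507), LPS_IFNg replicate 4 (0.35, 0.0502), or control replicate 2 (0.27, 0.117) or 4 (0.34, 0.0794). Scaling on probes detected on all arrays gave 0.18 (limma adjusted p = 0.272).

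Egr2, also called Krox20, fell below control with emodin. Its level was 4.30, 4.29, 4.34 and 4.02 in LPS_IFNg_emodin, 5.21, 5.35, 5.10 and 5.33 in LPS_IFNg, and 4.87, 4.90, 4.74 and 5.13 in control. The emodin arrays lay below all others, and LPS_IFNg and control overlapped. Egr2 was lower in LPS_IFNg_emodin than in LPS_IFNg by a log2 difference of -1.01 ± 0.10 (limma adjusted p = 3.29e-06) and than in control by -0.67 ± 0.10 (limma adjusted p = 7.32e-05). In LPS_IFNg it was higher than in control by 0.34 ± 0.10 (limma adjusted p = 0.0118). That rise fell to 0.15 with quantile normalization (limma adjusted p = 0.273) and with the deposited value table (limma adjusted p = 0.271), and scaling on probes detected on all arrays gave 0.22 (limma adjusted p = 0.0898).

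Klf3, a repressor that recruits the corepressor CtBP, was lowest with emodin. Its level was 2.72, 3.18, 3.01 and 2.92 in LPS_IFNg_emodin, 3.41, 3.58, 3.49 and 3.56 in LPS_IFNg, and 3.49, 3.45, 3.53 and 3.93 in control. All emodin arrays lay below the rest. Klf3 differed by -0.55 ± 0.12 in LPS_IFNg_emodin against LPS_IFNg (limma adjusted p = 0.0013) and by -0.65 ± 0.12 against control (limma adjusted p = 0.000338). LPS_IFNg against control was -0.09 ± 0.12, with a 95% interval from -0.35 to 0.17 (limma adjusted p = 0.509), and it was 0.018 without control replicate 4.

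Klf13, known to drive Ccl5 in lymphocytes, spread widely in control. Its level was 2.94, 2.97, 2.95 and 2.99 in LPS_IFNg_emodin, 3.09, 3.48, 3.43 and 3.44 in LPS_IFNg, and 2.77, 2.69, 3.12 and 3.52 in control. The emodin arrays lay together below all LPS_IFNg arrays and within the range of control. It was lower in LPS_IFNg_emodin than in LPS_IFNg by -0.40 ± 0.16 (limma adjusted p = 0.0408), a call lost without LPS_IFNg_emodin replicate 1 (-0.39, adjusted p = 0.0747), 2 (-0.40, 0.069), 3 (-0.39, 0.072) or 4 (-0.41, 0.0638), or LPS_IFNg replicate 2 (-0.36, 0.0935), 3 (-0.37, 0.0839) or 4 (-0.37, 0.0864). With quantile normalization, the deposited value table or no filter on dim probes, 5 members were called lower between the stimulated groups, in place of 6. Klf13 had the largest adjusted p of the 6. LPS_IFNg against control was 0.34 ± 0.16 (limma adjusted p = 0.0785), and was called without LPS_IFNg replicate 1 (0.43, 0.0392) or control replicate 4 (0.50, 0.00327). LPS_IFNg_emodin against control was -0.06 ± 0.16, with a 95% interval from -0.41 to 0.29. It was 0.10 without control replicate 4.

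Klf9, induced by glucocorticoid and thyroid hormone, was not called in any comparison. Its level ranged from 3.14 to 3.51 in LPS_IFNg_emodin, from 3.21 to 3.44 in LPS_IFNg and from 3.08 to 3.31 in control, and all groups overlapped. The 95% interval ran from -0.24 to 0.17 for LPS_IFNg_emodin against LPS_IFNg, from -0.07 to 0.34 against control, and from -0.03 to 0.38 for LPS_IFNg against control.

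**Figure D2:**
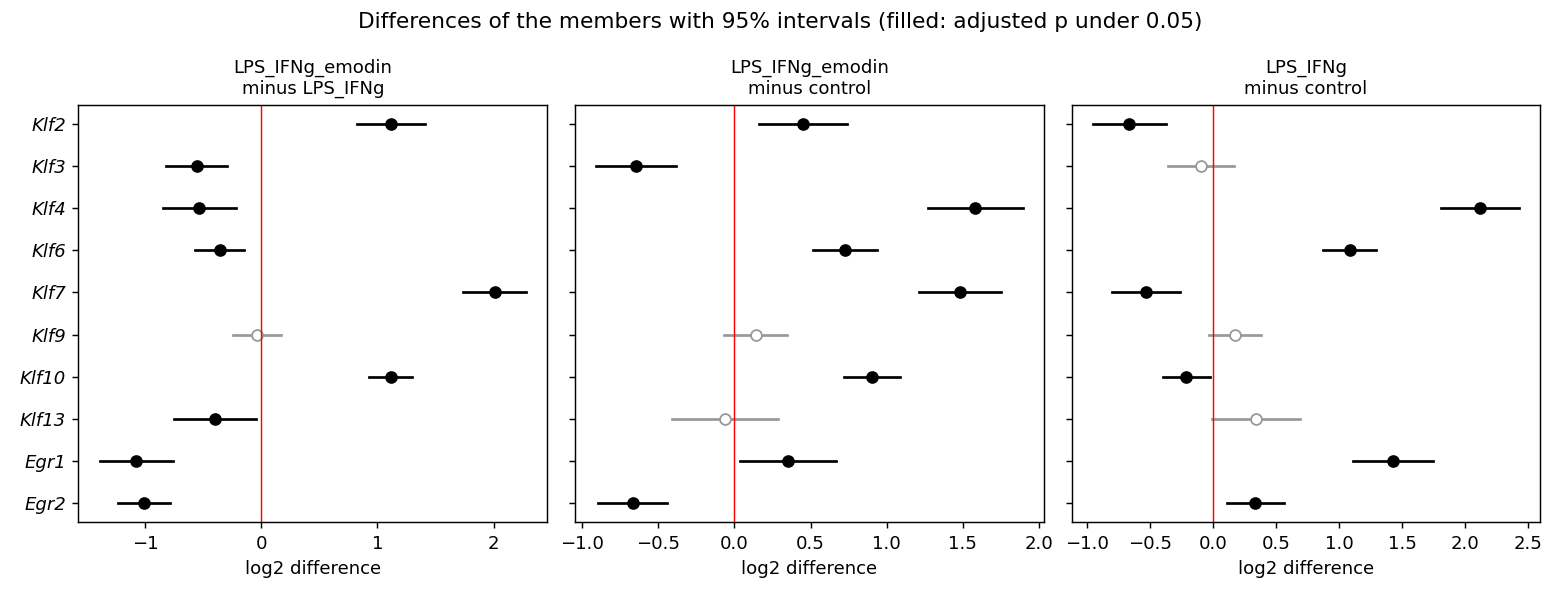
Log2 difference of each member with its 95% interval in LPS_IFNg_emodin minus LPS_IFNg (left), LPS_IFNg_emodin minus control (middle) and LPS_IFNg minus control (right); filled points were called. Klf7 has the largest positive difference between the stimulated groups (2.01), Klf4 the largest of the 10 in LPS_IFNg minus control (2.12), and Klf9 has no filled point.

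The size of the differences against LPS_IFNg depended on how total signal was treated. Spike-in controls averaged 13.29 on LPS_IFNg_emodin and 13.38 on LPS_IFNg arrays (log2), and ranged from 10.5 to 11.0 on the control arrays of the other slide, and only the stimulated arrays, which share a slide, were scaled on them. Between the stimulated groups the unscaled median gene was lower with emodin by a log2 difference of -0.76. When the stimulated arrays were scaled to the 7 spike-in probes above a signal of 30, the median of all genes was -0.67, with 1213 genes higher and 8626 lower. Klf7 (1.34, limma adjusted p = 2.01e-06), Klf2 (0.45, limma adjusted p = 0.037) and Klf10 (0.45, limma adjusted p = 0.00203) were still called higher on that scale. The other 7 were called lower, Klf9 included (-0.70, limma adjusted p = 0.000158), and Egr1 and Egr2 stood at -1.74 and -1.67.

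**Figure D3:**
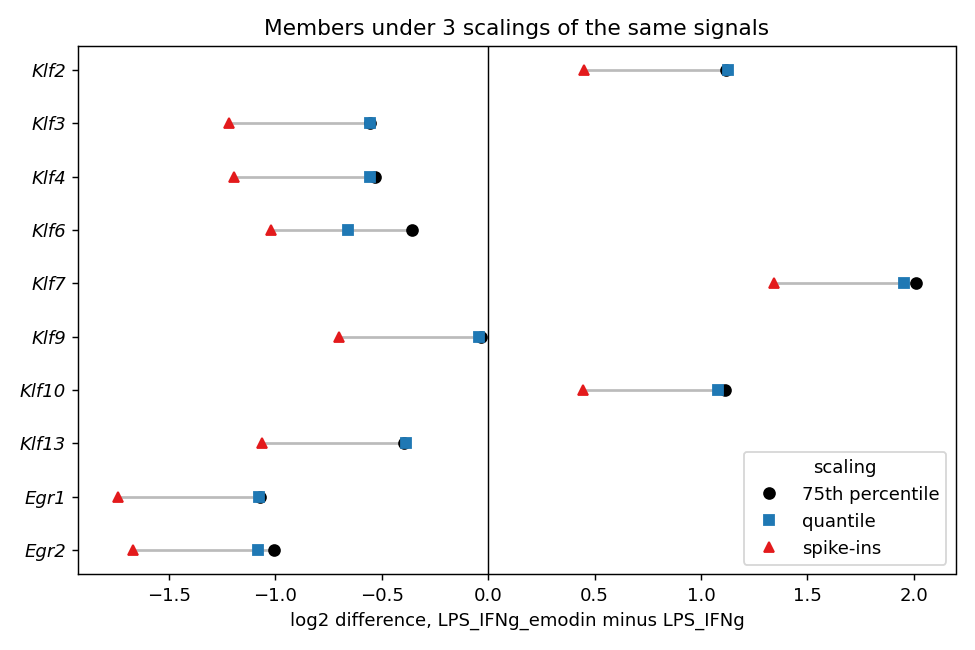
Log2 difference of each member between LPS_IFNg_emodin and LPS_IFNg under the 75th percentile, quantile and spike-in scalings of the same signals. Spike-in scaling moves every member down, and Klf2, Klf7 and Klf10 stay above 0.

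The counts in the gene lists below stand beside those over all genes. In LPS_IFNg_emodin against LPS_IFNg 35.1% of genes were higher and 36.8% lower, against control 39.0% and 39.2%, and in LPS_IFNg against control 33.8% and 35.2%. With spike-in scaling 1213 of 13165 genes were higher and 8626 lower between the stimulated groups. The list counts are not read as results about the lists. Of 21 other KLF, EGR and SP factors 11 were tested, and for the rest no probe was kept. In LPS_IFNg_emodin against LPS_IFNg 5 of these 11 were higher and 2 lower (median 0.24), against control 6 were higher and 3 lower (median 0.52), and in LPS_IFNg against control 4 were higher and 3 lower (median 0.15). With spike-in scaling the first of these became 1 higher and 6 lower. Klf8, a factor tied to cell migration, fell with emodin: its mean was -1.11 in LPS_IFNg_emodin, 0.85 in LPS_IFNg and 0.08 in control. Its difference was -1.96 ± 0.15 in LPS_IFNg_emodin against LPS_IFNg (limma adjusted p = 2.27e-07) and 0.77 ± 0.15 in LPS_IFNg against control (limma adjusted p = 0.000522). Klf5, which promotes growth in epithelia, had no control array well above background. It was at least 2.50-fold higher in LPS_IFNg_emodin than in control (limma adjusted p = 1.81e-07) and at least 2.71-fold higher in LPS_IFNg (limma adjusted p = 2.16e-07). "At least" compares the brighter mean with a floor for the dim group, set on each array as the smallest signal called above background, or the dim value where that was larger. This floor is not the detection limit of each probe, so folds given as at least are not strict lower bounds. Between the stimulated groups Klf5 differed by -0.12 ± 0.22, but by 0.38 with the normexp background correction (limma adjusted p = 0.0135) and -0.78 with spike-ins (limma adjusted p = 0.00157).

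Sp6, a factor of tooth and skin development, was higher in both stimulated groups than in control, by 2.08 ± 0.15 in LPS_IFNg_emodin (limma adjusted p = 8.33e-08) and 1.68 ± 0.15 in LPS_IFNg (limma adjusted p = 9.92e-07). Sp1, a general activator of GC-rich promoters, had a mean of 3.13 in LPS_IFNg_emodin, 2.08 in LPS_IFNg and 2.60 in control; it was named after its values were seen. Wt1, an EGR relative that marks mesothelial cells, averaged -4.25 in LPS_IFNg_emodin, where 2 of 4 arrays were above background, 0.58 in LPS_IFNg and -0.15 in control. It was called lower in LPS_IFNg_emodin than in LPS_IFNg (limma adjusted p = 0.00015), but the arrays below background leave the size uncertain. Of the 10 mesothelial and fibroblast markers, Pdgfra, Col1a1, Col1a2, Dcn and Krt8 were called lower in this comparison, Pdgfra by at least 11.4-fold. The mesothelial markers Msln (-0.996 ± 0.44, limma adjusted p = 0.0585) and Krt19 (-0.98 ± 0.60, limma adjusted p = 0.158) did not pass, nor did Col3a1, Lum and Gpm6a. Their part in the Wt1 difference was not tested.

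**Figure D4:**
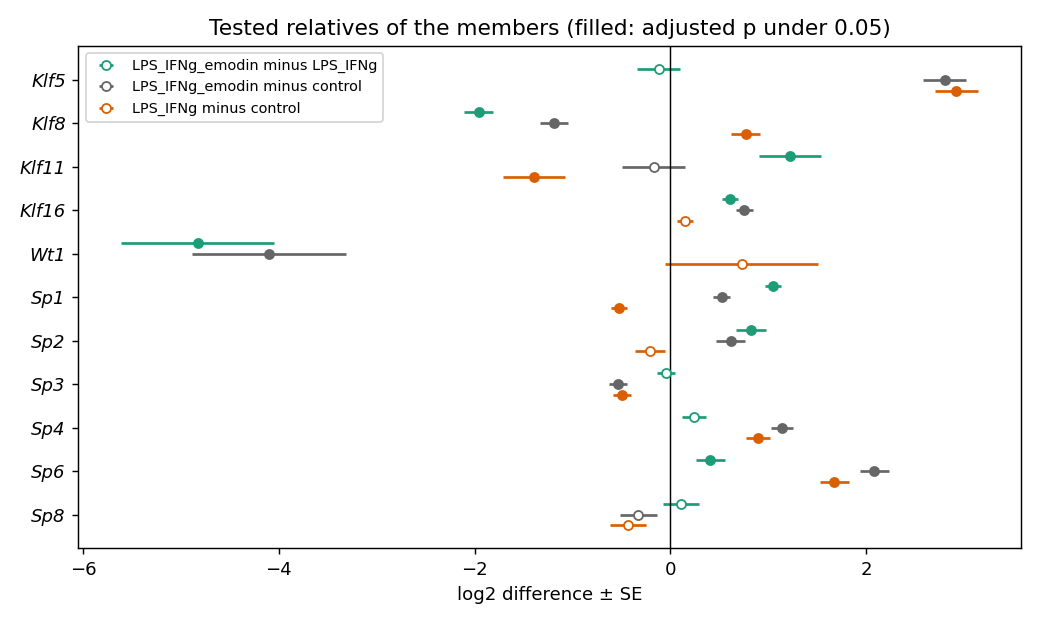
Log2 difference ± SE of the 11 tested relatives in LPS_IFNg_emodin minus LPS_IFNg, LPS_IFNg_emodin minus control and LPS_IFNg minus control; filled points were called. Klf8 lies at -1.96 between the stimulated groups and Sp6 at 2.08 in LPS_IFNg_emodin minus control. The points of Klf5 and Klf11 against a group with no array above background, and those of Wt1 and Klf11 in LPS_IFNg_emodin, rest on signals at background, and their distances from 0 cannot be ranked.

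Among 10 tested genes for EGR corepressors and the serum response factor route, 5 were higher and 5 lower in LPS_IFNg_emodin against LPS_IFNg, 5 and 4 against control, and 2 and 3 in LPS_IFNg against control. With spike-in scaling 6 were called between the stimulated groups, each lower. Both corepressors of EGR proteins fell with emodin. Nab1 averaged 0.62 in LPS_IFNg_emodin, 1.76 in LPS_IFNg and 2.17 in control, and Nab2 averaged 2.38, 3.30 and 3.85. Nab1 differed by -1.14 ± 0.11 between the stimulated groups (limma adjusted p = 2.43e-06) and Nab2 by -0.92 ± 0.13 (limma adjusted p = 4.83e-05). In LPS_IFNg against control Nab2 was -0.55 ± 0.13 (limma adjusted p = 0.00255), and -0.24 (limma adjusted p = 0.164) as a mean of its kept probes. Elk3, a ternary complex factor that works with serum response factor, was lower in LPS_IFNg_emodin than in LPS_IFNg by -3.13 ± 0.14 (limma adjusted p = 5.08e-09) and did not pass in LPS_IFNg against control (-0.04 ± 0.14). Map2k1, a kinase upstream of ERK, was higher than in control by 0.91 ± 0.08 in LPS_IFNg_emodin and 1.75 ± 0.08 in LPS_IFNg (limma adjusted p = 6.27e-07 and 3.25e-09).

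Of 9 tested genes on the ERK5 and MEF2 route to Klf2 and Klf4, 5 were higher and 2 lower in LPS_IFNg_emodin against LPS_IFNg (median 0.72), 6 and 3 against control (median 0.66), and 2 and 4 in LPS_IFNg against control (median -0.06). With spike-in scaling 3 were higher and 4 lower between the stimulated groups. Mef2d, one of the MEF2 factors, averaged 1.40 in LPS_IFNg_emodin, -0.53 in LPS_IFNg and -0.54 in control, a difference of 1.93 ± 0.14 between the stimulated groups (limma adjusted p = 2.18e-07). Map3k3, the kinase at the head of the ERK5 cascade, differed by 1.38 ± 0.07 (limma adjusted p = 1.11e-08). Mapk7, which is ERK5 and was named after its values were seen, differed by 0.72 ± 0.11 (limma adjusted p = 0.000101), but by 0.05 with spike-ins (limma adjusted p = 0.784). The 2 genes called lower, Map2k5 and Hdac7, were also named after their values were seen. They differed by -0.19 ± 0.07 (limma adjusted p = 0.0255) and -0.31 ± 0.12 (limma adjusted p = 0.0427). Map2k5 was below control too, by -0.63 ± 0.07 in LPS_IFNg_emodin and -0.43 ± 0.07 in LPS_IFNg (limma adjusted p = 4.29e-06 and 0.000147). Mef2a was higher than in control by 2.16 ± 0.10 in LPS_IFNg_emodin and 1.94 ± 0.10 in LPS_IFNg (limma adjusted p = 1.77e-09 and 7.14e-09). Mef2c was above background only in control, and was at least 3.44-fold lower in LPS_IFNg_emodin (limma adjusted p = 2.63e-05) and at least 3.35-fold lower in LPS_IFNg (limma adjusted p = 0.000455).

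Among 16 KLF partners and degraders, 6 were higher and 7 lower in LPS_IFNg_emodin against LPS_IFNg, 7 and 7 against control, and 6 and 2 in LPS_IFNg against control. With spike-in scaling 11 were called between the stimulated groups, each lower. Smurf1, a ubiquitin ligase that targets Klf2 protein, averaged 2.70 in LPS_IFNg_emodin, 1.70 in LPS_IFNg and 0.12 in control. Its difference between the stimulated groups was 0.99 ± 0.14 (limma adjusted p = 4.09e-05), or 0.33 with spike-ins (limma adjusted p = 0.122). Smurf2, its relative, differed by 0.80 ± 0.06 (limma adjusted p = 2.45e-07), or by 0.13 with spike-ins (limma adjusted p = 0.348) and 0.09 as a mean of kept probes (limma adjusted p = 0.208). Kat2b, an acetyltransferase that works with KLF proteins, differed by -2.23 ± 0.15 (limma adjusted p = 8.84e-08). Vhl, part of a ubiquitin ligase, averaged 3.65 in LPS_IFNg_emodin, 4.27 in LPS_IFNg and 2.61 in control.

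Of 15 tested immediate early genes, 9 were higher and 5 lower in LPS_IFNg_emodin against LPS_IFNg, 7 and 3 against control, and 9 and 5 in LPS_IFNg against control. With spike-ins 6 were higher and 8 lower between the stimulated groups. Zfp36, which speeds decay of cytokine mRNA, averaged 2.35 in LPS_IFNg_emodin, 0.34 in LPS_IFNg and -1.35 in control. Fosl1, an AP-1 subunit, averaged -1.63, 0.39 and -3.79, and Ier3, a stress-induced survival gene, averaged 4.06, 4.84 and 0.61. Ier2 averaged -4.08 in LPS_IFNg_emodin, where 1 of 4 arrays was above background, -1.01 in LPS_IFNg and -1.09 in control. It was called lower in LPS_IFNg_emodin than in LPS_IFNg (limma adjusted p = 5.71e-06), with a size that the arrays below background leave uncertain. Fos, Jun and Nr4a1, named after their values were seen, had their lowest means in LPS_IFNg. The AP-1 gene Fos averaged 1.06 in LPS_IFNg_emodin, -0.52 in LPS_IFNg and 1.32 in control, Jun averaged 6.31, 5.33 and 6.35, and the nuclear receptor Nr4a1 averaged 0.79, -0.62 and 0.44. Against control, Jun differed by -0.05 ± 0.09 in LPS_IFNg_emodin, and by -0.45 with quantile normalization (limma adjusted p = 0.00306).

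The genes with the pattern most like each member over the 12 arrays were found by Pearson correlation, given as a description since the arrays share their treatment groups. Klf7 was nearest to Mfsd12 (0.994) and Map3k20 (0.991), Klf4 to Rnf24 and Klc2 (0.996 each), and Klf10 to Slc25a30 (0.991). Klf2 was nearest to Mcu (0.987), Klf6 to Ccdc88b (0.988), Klf3 to Cplane1 (0.982) and Egr1 to Gm3776 (0.980). Egr2 was nearest to Gna15 (0.986), with Klf8 next (0.981). Klf13 (Abca3, 0.934) and Klf9 (Pcgf3, 0.889) had the weakest nearest neighbours.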

How the data were processed

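Each deposited scanner file gives the intensity of every spot as read by Agilent Feature Extraction 10.7.3.1, a version taken from the submitters' processing notes. Per the file headers the authors' software had subtracted background, with no normalisation across arrays. The deposited value table holds log2 values; its columns matched quantile-normalised, probe-centred scanner signals (r from 0.994 to 0.998), with medians from -0.0314 to 0.0416, and its control columns 1, 3 and 4 matched scanner controls 4, 1 and 3. It was used only as an alternative, and whether it was scaled further is not given in the sources used here.

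Here, control spots and outlier-flagged spots were left out, repeat spots were averaged, and the array's 75th percentile was subtracted from the log2 signal. Probes well above background throughout at least 1 group were kept (27375 of 55681). Accessions were matched to RefSeq (GRCm38.p6, names only), and the kept probe with the highest mean stood for a gene. limma 3.58.1 in R 4.3.3 fitted 3 group means to 12 arrays, with Benjamini-Hochberg adjustment over 13165 genes. In 5 draws simulated for LPS_IFNg against control, with 200 of 13165 genes changed, 89.0% of log2 changes of 1 and 50.4% of log2 changes of 0.5 were recovered. In the data 69.0% of genes were called in that comparison. The Benjamini-Hochberg threshold depends on that share, so these rates do not give the recovery in the data. The number of arrays limits the precision.

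The series text names 4 biological replicates per group but ties none to an animal, so the p-values reflect only the spread among these samples. Same-numbered LPS_IFNg_emodin and LPS_IFNg samples deviated together (correlations 0.23, 0.28, 0.16 and 0.15 over genes), so the numbers were taken as pairs there from the data, in the replicate block only. Control numbers did not pair with them. The main fit, which gave the p-values of the Results, ignored this pairing. For Klf2 between the stimulated groups the limma adjusted p was 0.0011 with the block over the 8 stimulated arrays, beside 1.17e-05. The members, gene lists, markers and tests were chosen with earlier results of these data known. Genes named beside the members and markers were mainly those with the largest change called in a list (up to 4 per list) and the nearest in pattern. Sp1, Mapk7, Map2k5, Hdac7, Fos, Jun and Nr4a1 fell outside these rules and were named after their values were seen. Alternatives were other background corrections, scalings, filters and probe rules, the replicate block, and leaving arrays out; the normexp correction used the median spot signal, and it and the fit without 4 arrays were chosen after seeing the data.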

Additional observations from a re-analysis of the deposited data

Results flagged for a closer look

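On 3 of 30 gene and group combinations 1 array lay far from the other 3, where chance gives about 1 in 20. Klf3 on control replicate 4 was 3.93, with the other control arrays from 3.45 to 3.53. Klf13 on LPS_IFNg replicate 1 was 3.09, with the others from 3.43 to 3.48. Egr2 on LPS_IFNg_emodin replicate 4 was 4.02, with the others from 4.29 to 4.34.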

How the results depend on the processing

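Of 710 values of the members' differences under other settings, 655 kept their direction and side of the threshold, 41 were no longer called, 5 became called and 9 changed sign. The number of members called over the settings that leave out 1 array ranged from 8 to 9 for LPS_IFNg_emodin against LPS_IFNg, from 7 to 8 for LPS_IFNg_emodin against control and from 6 to 8 for LPS_IFNg against control. The sign changes were in uncalled differences near 0. Klf3 in LPS_IFNg against control was 0.044 without the 4 arrays at odds with their sex label, and ranged from -0.14 to 0.018 when 1 array was left out (highest without control replicate 4). Klf9 in LPS_IFNg_emodin against LPS_IFNg ranged from -0.11 to 0.018 when 1 array was left out, being above 0 without LPS_IFNg_emodin replicate 4 or LPS_IFNg replicate 3. Klf9 in LPS_IFNg_emodin against control was -0.034 with scaling on detected probes and -0.0015 without the 4 arrays. Klf13 in LPS_IFNg_emodin against control was 0.063 with normexp and 0.24 without the 4 arrays, and ranged from -0.17 to 0.10 when 1 array was left out (highest without control replicate 4). The cause was not tested. With the replicate number as a block, 9 members were called in LPS_IFNg_emodin against LPS_IFNg, 8 in LPS_IFNg_emodin against control and 7 in LPS_IFNg against control over 12 arrays, and 9 over the 8 stimulated arrays; the block changed no member's call. Scaling moved the split of calls over all genes: LPS_IFNg_emodin against control had 4382 higher and 5807 lower with quantile normalization and 4328 and 5996 with scaling on detected probes, beside 5128 and 5160, and LPS_IFNg against control had 3887 and 5460, and 3797 and 5574, beside 4446 and 4634. Without the filter on dim probes, which raises the genes tested to 20883 in place of 13165, these were 8200 and 5328, and 7841 and 4780.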
